A study of Mus musculus with 18 samples.

Results

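NIPBL is the factor that, with its partner MAU2, loads the cohesin ring onto DNA and drives loop extrusion, and RAD21 is the subunit that closes that ring. The regions described here carried NIPBL without RAD21 and lay away from gene starts, in a mouse pro-B cell line. They were found by merging overlapping peaks of both NIPBL dCas9Control lists on 19 autosomes and X and keeping the 32156 merged regions with a peak in each list. A region became a member if it lay more than 5 kb from every annotated gene start (mm9, GENCODE vM1) and overlapped none of the 41593 RAD21 regions called in both RAD21 dCas9Control lists. The rule gave 15800 members. The other NIPBL regions were 10084 promoter sites without RAD21, 2831 distal sites with RAD21 and 3441 promoter sites with RAD21. Another 27812 distal RAD21 sites had no NIPBL region.

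The cells were v-Abl transformed pro-B cells, kept in 3 uM STI-571 (an Abl kinase inhibitor) for 4 days before fixation. All groups lacked RAG2 and the JH segments, expressed dCas9 (a Cas9 that binds without cutting) and carried Emu-Bcl2, a Bcl2 transgene under the immunoglobulin heavy chain enhancer. Control cells had only these alleles, and the Ig2b wild type cells carried the same genotype label. Block cells also expressed the Sg1-sgRNA guide, and Ig2b deleted cells were Ig2b-del/del. Peak lists were used for NIPBL control (n = 2) and block (n = 2), and for RAD21 control (n = 2), block (n = 2), Ig2b wild type (n = 3) and Ig2b deleted (n = 3). The labels name 1 cell line and do not say whether replicates were separate cultures or clones, so p-values measure only the spread between these samples.

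NIPBL lists held 63052 to 123391 peaks and RAD21 lists 44729 to 82566, while read depth was unknown. Both RAD21 replicate 2 libraries of the dCas9 cells covered more of the genome (34.4 and 31.5 Mb) than their replicate 1 libraries (15.85 and 23.7 Mb). NIPBL regions of both controls lay within 5 kb of the start of 8 of 8 pro-B marker genes, among them Pax5 and Ebf1. The same held for 2 of 8 T cell markers, 4 of 8 myeloid markers, 2 of 7 erythroid markers and 50.9% of all protein-coding genes.

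Most members lay in sequence that occurs many times in the genome. Each site was cut into overlapping words of 32 bases, which were counted on both strands of mm9, and a site was called repeated when fewer than 50% of its words occurred once. By this measure 12095 members (76.6%) were repeated, against 43.5% of all 32156 NIPBL regions, and 8628 members had no single-copy word at all. Only 11.9% of NIPBL promoter sites without RAD21 and 16.8% of distal NIPBL sites with RAD21 were repeated. The remaining 3705 members were single-copy. How reads with several equal matches were placed is not given in the sources used here, and the 4 input samples were not used, so the share of this signal that an input would also show was not tested. The class also depends on weak peaks: with all lists limited to −log10 q of at least 3 it held 1569 regions, and 57.3% of the members found again in that way were repeated.

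**Figure D1:**
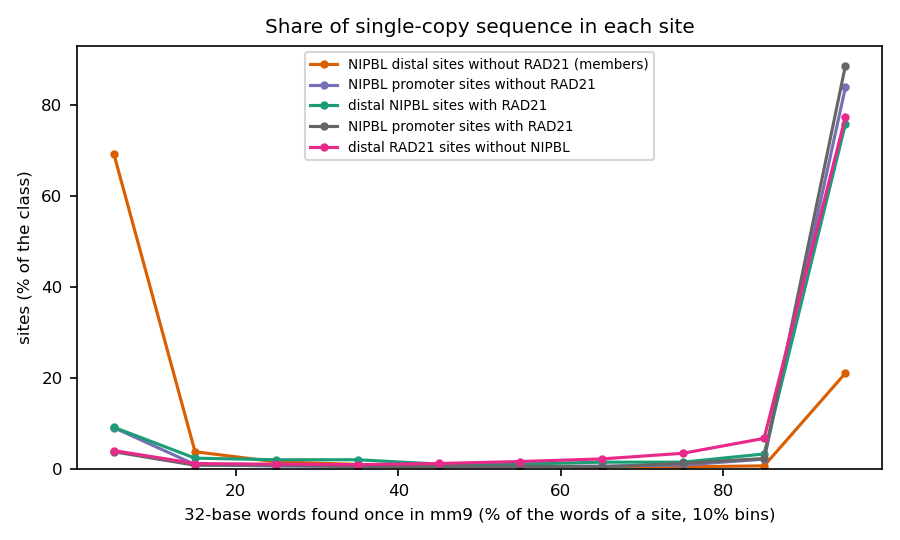
Percentage of the sites in each class (vertical axis) by the percentage of a site's 32-base words that occur once in mm9 (horizontal axis, bins of 10%). Of the members, 69.3% fell in the lowest bin and 21.1% in the highest, whereas 75.8% to 88.6% of the sites in the other classes fell in the highest bin.

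The repeated members were grouped from the 16-base word held by the largest number of them, after removal of each group in turn. This gave 9 families, a telomeric group and a remainder of 3021. A member joined a family if it held at least 5 of the words found in at least 10% of the members with that first word. The first word itself was in 2073 of 2532 members of family 1 and in 157 of 278 of family 9. Genome copies given below are copies of the first word. The words are printed because each is shared by many NIPBL sites. All bases are in capitals since the whole word was counted, and each was copied from mm9.
family 1: AGCAGCGGTCGCCATC
family 2: CTGCTTCCCTATGTAC
family 3: ACTACGCAGGGCGGGG
family 5: AGACCCACAAGGGTGG
family 7: AGGGCAGGCTGCACGG
family 9: CCCTGGGAGACGTCCC

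Families 1, 2 and 3 held 2532, 1988 and 1502 members. The word of family 1 occurred 8416 times in the genome, and 69.3% of the copies lay in a NIPBL region of both controls; for family 2 it was 70.8% of 7947 copies and for family 3 it was 80.2% of 1537. RAD21 regions of both controls held 1 copy of family 1, 1 of family 2 and none of family 3. In single libraries, NIPBL peaks held 60.4% and 65.4% of the family 1 copies in the controls and 55.2% and 69.9% in the block cells. No RAD21 library held more than 0.0119% of those copies. That included the 6 Ig2b lists, which by their peak names were called without a control library and which held none.

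A long reading frame lay at a fixed side of several families. Full-length LINE-1 retrotransposons, abundant mobile elements of the mouse genome, carry a regulatory stretch at their 5′ end followed by 2 reading frames, the longer of which encodes the reverse transcriptase. An open frame of at least 1000 codons within 8 kb was found on 1 side and strand of 72.7% of family 1 members. Its median length was 1300 codons, with 1651 bp between site centre and frame. On the other sides and strands such a frame was found in at most 0.869%. For family 2 the share was 55.7% with a median of 1300 codons at 1615 bp, and for family 7 it was 45.01% with 1300 codons at 1760 bp. Family 9 had 26.3% with 1187 codons at 1777 bp. In families 1, 2, 7 and 9 the frame ran away from the site, which lay ahead of its start. Family 6 had 33.3% with 1300 codons at 308 bp, but there the frame ran toward the site, which lay past its end. In families 3, 4, 5 and 8 the share was 2.57% to 11.9%. Single-copy members had such a frame in 0.432% of cases. No repeat annotation was used here, so the families are named by their words only.

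**Figure D2:**
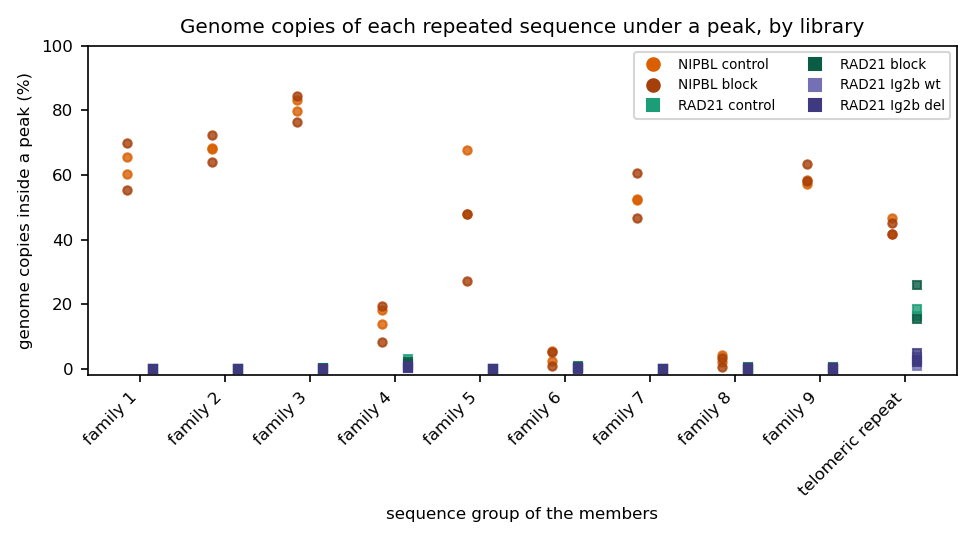
Percentage of the genome copies of each family word, or of each telomeric tract, that lay inside a peak (vertical axis), with 1 point per library; circles are NIPBL and squares RAD21 libraries, coloured by group. In families 1, 2, 3, 5, 7 and 9 the NIPBL libraries lay between 27.2% and 84.5% and the RAD21 libraries near 0%, while families 6 and 8 had many copies of which few were under peaks.

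Not every abundant repeat was marked. The words of families 6 and 8 occurred 36017 and 34920 times, and 1.11% and 0.902% of their copies lay in NIPBL regions. Members of these families also had the lowest share of peaks in the block cells, at 11.8% and 34.1% for family 6 and 5.84% and 26.2% for family 8. Members of families 1 and 2 had a NIPBL peak in 86.8% to 94.5% of cases in each block library. Median control folds were 2.76 and 2.88 for family 6, and 2.74 and 2.84 for family 8. These lay near the lowest fold of any peak in the 2 control lists, 2.74 and 2.78. For families 1 and 2 they were 3.23 to 3.57.

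The members with the highest enrichment were tracts of the telomeric repeat inside chromosomes. Telomeres are built of a short repeated unit that the shelterin complex binds, and similar short tracts also lie at internal positions. All 10 members with the highest rank by the authors' fold in both NIPBL block lists held such a tract. The tract 169210 bp from the start of Tnks, which encodes tankyrase, a regulator of telomere length, had NIPBL folds of 24.6 and 24.3 in the controls and 23.3 and 22.4 in the block cells. These values differed little between the libraries, and they stood far above the medians of all members, 3.11 and 3.20 in the controls. The tract whose nearest coding gene is Greb1 had block folds of 21.5 and 22.6. The remaining tracts lay nearest to Gm6404, Kcnh1, Gm10110, Gpr12, Plk2, Fam86, Ror2 and Tbl1xr1, with block folds between 15.2 and 20.7. Any link between a tract and its nearest gene, Tnks among them, was not tested.

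Genome-wide, 337 tracts had at least 4 units in a row, and 143 of them (42.4%) lay in a NIPBL region of both controls. Those tracts had a median length of 54 bp, against 36 bp for the other 194. RAD21 regions of both controls held 54 tracts. The 53 members with a tract had a RAD21 peak in 9.43% and 5.66% of cases in the controls, 26.4% and 5.66% in the block cells, and none in any of the 6 Ig2b libraries. NIPBL peaks were present at 92.5% and 100% of them in the block libraries.

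Repeated members were spread unevenly along the genome. Their density was highest on X, at 6.47 per Mb, and lowest on chromosome 11, at 2.93 per Mb. Single-copy members had their lowest density on X, at 0.276 per Mb, and their highest on chromosome 5, at 2.56 per Mb. Of the repeated members 74.3% were intergenic and 25.1% intronic, and the median distance to a gene start was 51034 bp. Single-copy members lay closer to genes, at a median of 18484 bp, with 24.9% on exons, 41.5% in introns and 33.6% between genes. An annotated transcript start lay within 1 kb of 564 single-copy members (15.2%), although every gene's own start was more than 5 kb away.

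Local arrays also shaped the distribution. Atg7, which encodes an enzyme of autophagy, was the nearest protein-coding gene of 62 members, all within 261 kb of chromosome 6 (114471553 to 114732809). Only 2 of these were single-copy, their words had a median of 51 copies, and no RAD21 library had a peak at more than 2 of them. The next genes were Pcdh7 with 38 members, Ncam2 with 28, Lphn3 with 27, G6pd2 and Igfbp7 with 25 each, Cdh20 with 24, Dnajb9 and Kcnt2 with 22 each, and Cntnap5a with 21. Their members were spread over 1303 to 3804 kb and were nearly all repeated. The median over the 6497 genes with any member was 1.

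The 3 widest members were also repeated. A region of 8366 bp at chr3:6299187-6307552 and one of 7372 bp at chr10:27538112-27545483 belonged to family 2, and one of 6109 bp at chr2:52552013-52558121 lay in an intron of Cacnb4. No RAD21 library had a peak in any of them. The median width was 383 bp for repeated and 281 bp for single-copy members, against 587 bp for NIPBL promoter sites without RAD21. At the 5 kb limit, the nearest member lay 5002 bp from Psg-ps1 with control folds of 3.20 and 3.90, and the nearest region left out lay 5000 bp from Gm2128 with 5.17 and 3.00.

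Single-copy members differed from repeated members in their RAD21 peaks. Among single-copy members, RAD21 peaks lay at 20.6%, 27.6% and 13.8% of sites in the Ig2b wild type libraries and at 31.5%, 39.1% and 19.9% in the Ig2b deleted libraries. Among repeated members the same libraries had peaks at 0.868%, 1.12% and 0.728%, and at 1.09%, 1.53% and 0.570%. The lowest single-copy value was above every repeated value. RAD21 control replicate 2 already had a peak at 50.0% of single-copy and 0.934% of repeated members. Among the 1818 single-copy members with no RAD21 peak in either control, the Ig2b shares were 0.660%, 1.43% and 0.440% in the wild type libraries. In the deleted libraries they were 1.82%, 4.18% and 0.385%. These overlapped the shares of all repeated members, which were not limited in that way. Under the same limit all 13621 members, 86.7% of them repeated, had 0.411%, 0.675% and 0.330% in the wild type libraries. They had 0.595%, 1.11% and 0.213% in the deleted libraries. Each of these values lay below the single-copy value of the same library. Over all members the shares were 5.50%, 7.34% and 3.78% in the wild type and 8.22%, 10.3% and 5.11% in the deleted libraries.

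The RAD21 control lists that the rule used gave unequal shares, which the rule itself shaped. RAD21 control replicate 1 had a peak at 1.16% of single-copy members and replicate 2 at 50.0%. Block replicate 1 had 16.6% and block replicate 2 had 48.1%. Sites with a RAD21 peak in 1 control list only are members by the rule, whereas regions called in both were removed. A peak in 1 control thus left little room for a peak in the other. Of the single-copy members, 34 had a peak in replicate 1 only, 1844 in replicate 2 only and 9 separate peaks in both. In all, 13621 members (86.2%) had no RAD21 peak in either control, and 13248 had none in any of the 8 RAD21 libraries outside the rule. Of the 3705 single-copy members, 1818 had no RAD21 peak in either control.

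**Figure D3:**
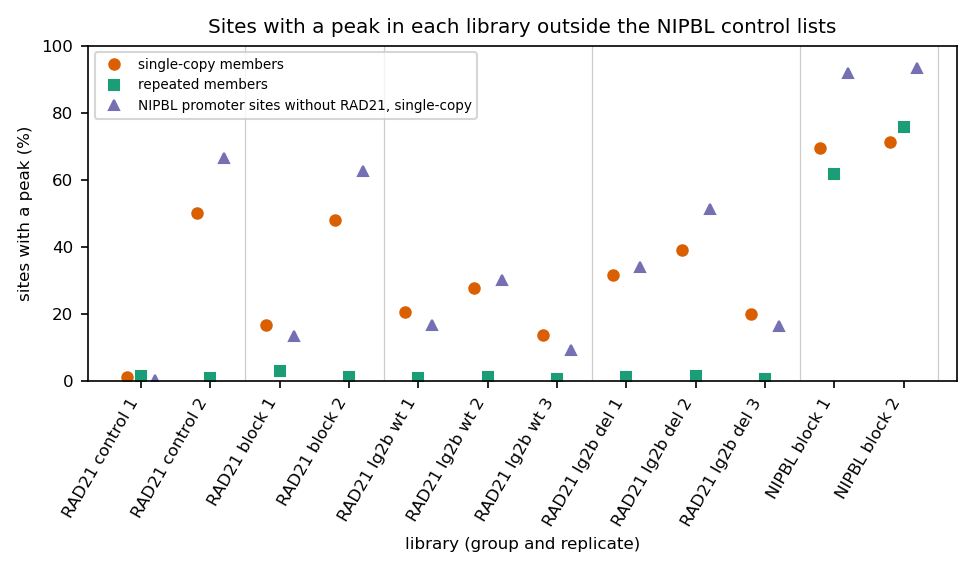
Percentage of sites with a peak (vertical axis) in each library outside the NIPBL control lists (horizontal axis), for single-copy members (circles), repeated members (squares) and single-copy NIPBL promoter sites without RAD21 (triangles). Repeated members lay between 0.570% and 2.94% in the RAD21 libraries and at 61.7% and 75.6% in the NIPBL block libraries.

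Compared with NIPBL promoter sites without RAD21, which were chosen by the same lists, members carried RAD21 less often in the Ig2b libraries. The classes did not start alike, since RAD21 control replicate 2 had a peak at 59.9% of these promoter sites and 12.4% of members. Median widths were 587 and 352 bp. Promoter sites had a RAD21 peak in 15.5%, 27.2% and 8.58% of cases in the wild type and in 30.9%, 46.4% and 15.1% in the deleted libraries. The mean difference was −17.2 percentage points, below 0 in 6 of 6 libraries (exact paired sign-flip test over libraries, two-sided, p = 0.031, the smallest that 6 libraries allow). Restricted to single-copy sites of both classes, the mean difference was −0.857 points with 3 of 6 libraries below 0 (exact p = 0.8125). In windows of 300 bp at the centres of single-copy sites it was 5.77 points with 1 of 6 below 0 (exact p = 0.0625). Among single-copy sites with no RAD21 peak in either control it was −2.35 points with 6 of 6 below 0 (exact p = 0.031). Without the single-copy limit, sites with no RAD21 peak in either control gave −2.69 points with 6 of 6 below 0 (exact p = 0.031). Over all sites, the difference was −0.746 points (exact p = 0.125) with RAD21 peaks of −log10 q of at least 3, and −1.80 points (exact p = 0.25) where a peak had to cover 50% of the site.

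The deletion comparison did not separate the groups. The share of members with a RAD21 peak was 5.54% ± 1.78 (SD, n = 3) in wild type and 7.88% ± 2.63 (SD, n = 3) in deleted cells. The groups overlapped, and the difference was 2.34 points (two-sided exact permutation test, p = 0.3; the smallest possible is 0.1). With peaks of −log10 q of at least 3 it was 0.905 points (exact p = 0.1). Among single-copy members the difference was 9.48 points (exact p = 0.3). Total peak number moved the same way in part, with 45697 to 56348 peaks in the wild type lists and 44729 to 75597 in the deleted lists, and its part in the difference was not tested.

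A genome-wide test of the deletion called 4 regions with a member, all of them single-copy. RAD21 peaks of the 6 libraries were merged, covered bp per region were taken as log2(bp + 100), and regions whose mean reached 100 bp were fitted with limma and Benjamini-Hochberg adjustment. Of 42429 regions, 0.224% were called at an adjusted p under 0.05; among the 1060 that held a member it was 4 (0.377%), 3 higher (0.196% of all regions were higher) and 1 lower in deleted cells. At an unadjusted p under 0.05 it was 8.09% of all and 138 (13%) of the member regions, of which 133 were higher. The median difference was 0.54 on that log2 scale for member regions and 0.21 for all. With quantile normalization the medians were 0.25 and −0.04, and 111 of the 142 member regions with an unadjusted p under 0.05 were higher. Without Ig2b deleted replicate 2 the medians were 0.26 and 0.09, with 63 of 82 higher, without wild type replicate 3 they were 0.34 and 0.14, and without deleted replicate 3 they were 0.89 and 0.34. At chr12:17155666-17156534, 27654 bp from Kcnf1 (a potassium channel gene), peaks covered 0 bp in every wild type library and 777, 429 and 466 bp in the deleted ones (2.68 ± 0.24 SE on the log2 scale, adjusted p = 0.033). At chr2:173132657-173132889, 30634 bp from Pmepa1, they covered 0 bp in wild type and 229, 222 and 176 bp in deleted cells. At chr5:36735355-36735906, in an intron of Sorcs2, they covered 0 bp in wild type and 367, 552 and 267 bp in deleted cells. At chr17:88564175-88564589, nearest to Gm17287, they covered 256, 247 and 396 bp in wild type and 0 bp in deleted cells. In the dCas9 cells, which lack this deletion, all 4 sites had a RAD21 peak in control replicate 2 (288 to 460 bp of the member) and in block replicate 2 (190 to 608 bp). They had none in control replicate 1, which was largely fixed by the rule, since regions called in both controls were removed. None of the 4 was called with 500 bp added, without the filter, with quantile normalization or with the replicate block. By presence alone, 40 of the 15800 members had a peak in all 3 deleted and no wild type library, and 3 had the opposite pattern. Of all 105335 merged RAD21 regions, 0.931% and 0.191% had these patterns. Every merged region holds a RAD21 peak and most members hold none, so these counts and shares have unlike bases. Without Ig2b deleted replicate 3 limma called 641 of 44089 regions (1.45%) and 32 of the 1108 with a member (2.89%), and without any other single library it called none. With peaks limited to −log10 q of at least 3 it called 710 of 24184 regions (2.94%) and 20 of the 202 with a member (9.9%).

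NIPBL in the block cells was compared with the control lists that had defined the members, so these values are a description. A NIPBL peak in both block libraries was found at 9182 members (58.1%), against 73.4% of all NIPBL regions, and 3158 members had a peak in neither. Of all 238985 regions with a peak in any of the 4 NIPBL libraries, 1.65% had it in both controls and neither block library. The choice of members favours that pattern. All members had a peak in both controls and most of those regions were not chosen so, hence the bases are unlike. Block replicate 1 had a peak at 63.6% of members and replicate 2 at 74.6%. The lowest fold of any peak was 3.36 in block replicate 1 and 2.69 in block replicate 2, against 2.74 and 2.78 in the controls. Members had median control folds of 3.11 and 3.20, so many were weak peaks. The part of these limits in the block shares was not tested. Single-copy and repeated members gave similar shares in both block libraries, at 60.6% and 57.4%, while single-copy NIPBL promoter sites without RAD21 gave 89.4%. Single-copy members with a RAD21 peak in control replicate 2 had NIPBL in both block libraries in 88.1% of 1853 cases, and those without in 33.0% of 1852. In limma no region of 42036 was called (0%), and none of the 12337 regions with a member; at an unadjusted p under 0.05 it was 10.8% of all and 9.63% of the member regions. With peaks limited to −log10 q of at least 3, 974 of 16116 regions were called (6.04%), and 295 of the 4159 with a member (7.09%). The order of the unadjusted shares turned at that limit (11% of all and 11.9% of member regions), with quantile normalization (10.3% and 13.3%), without the filter (3.62% and 14.8%) and without block replicate 2 (8.41% and 13%).

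**Figure D4:**
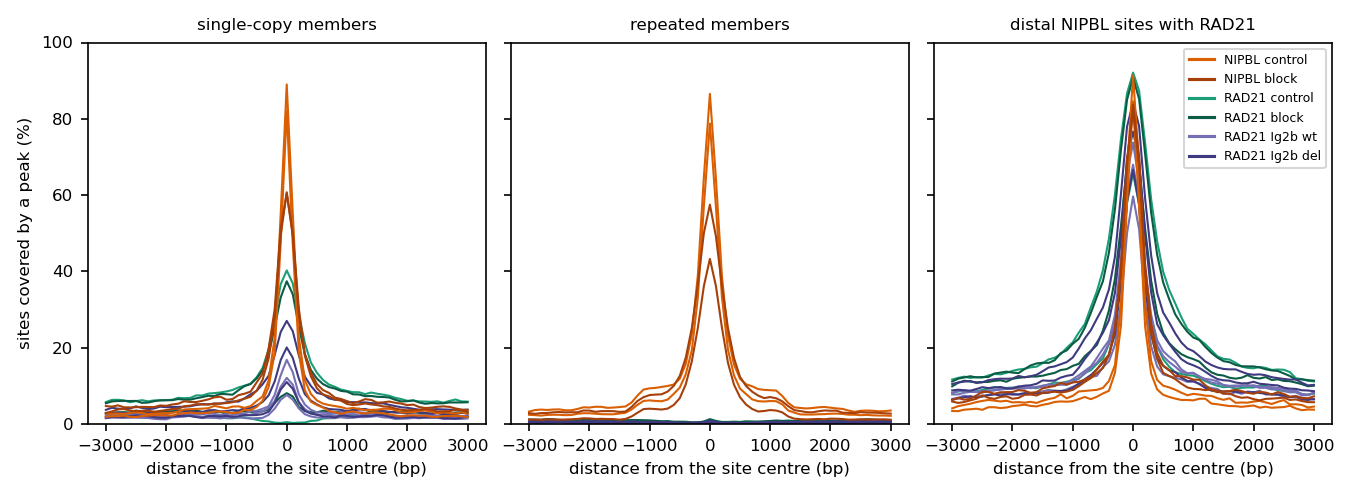
Percentage of sites covered by a peak (vertical axis) at each distance from the site centre (horizontal axis, bp), with 1 line per library, for single-copy members, repeated members and distal NIPBL sites with RAD21. At the centre of single-copy members RAD21 control replicate 2 covered 40.3% and replicate 1 covered 0.513%, whereas at the centre of repeated members no RAD21 library covered more than 1.30%. The rule removed regions called in both RAD21 controls, so the control values at members are not independent of each other.

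The heavy chain locus Igh held 12 members. The one inside the repeats near Ighg1 lay in the position known for the γ1 switch region, a stretch of repeats that activated B cells use for class switching, and it is printed because it had the lowest unadjusted p of the RAD21 regions with a member in the block comparison. Its central 300 bases are given from the plus strand of mm9, with AGCT, the core of the switch repeats, in capitals.
chr12:114574686-114574985: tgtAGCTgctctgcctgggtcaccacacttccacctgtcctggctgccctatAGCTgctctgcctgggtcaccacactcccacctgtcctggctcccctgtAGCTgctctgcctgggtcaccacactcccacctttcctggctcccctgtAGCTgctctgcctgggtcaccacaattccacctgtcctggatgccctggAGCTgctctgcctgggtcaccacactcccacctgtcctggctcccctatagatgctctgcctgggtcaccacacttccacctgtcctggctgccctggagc

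This member (chr12:114574660-114575011, 5926 bp from the start of Ighg1) had NIPBL folds of 3.72 and 3.07 in the controls and 11.2 and 8.11 in the block cells. Medians of all members with a peak were 3.11 and 3.20 in the controls and 3.98 and 3.25 in the block cells. RAD21 covered 0 bp of it in both controls and all 352 bp in both block libraries. The merged RAD21 region around it, chr12:114572792-114575421, was covered for 0 bp in both controls and for 2630 and 2478 bp in the block libraries (4.73 ± 0.36 SE on the log2 scale, limma adjusted p = 1). No RAD21 region was called in that comparison (0% of 63733), and 0.753% had an unadjusted p under 0.05, against 7 of the 1728 regions with a member (0.405%). That order turned with quantile normalization (0.505% of all and 0.579% of member regions), without RAD21 control replicate 2 (5.06% and 14.3%) and without control replicate 1 (2.85% and 3.78%). By presence alone, 30 of the 15800 members had a RAD21 peak in both block and no control library, and 1 had the opposite pattern. Of all 127860 merged RAD21 regions, 1.15% and 0.278% had these patterns. The bases are again unlike, and the rule used the control lists. The 6 Ig2b libraries had no RAD21 peak at the member near Ighg1. Of the other 11 Igh members 9 were repeated, and 9 had no RAD21 peak in any library.

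The single-copy members with the highest ranks by block fold, chosen after the repeats had been seen, were intronic or intergenic sites. Of these 10, 9 had a RAD21 peak in 1 to 9 of the 10 RAD21 libraries, and the last, an intronic site, had none in any. The central 300 bases of 3 of them are printed to show the letters counted further on, from the plus strand of mm9, with matches on either strand in capitals to CAGGTG or the palindrome CAGCTG (E-boxes) or to GGGCGG (the SP box). CCCNNGGG, the EBF1 core, was also searched and was not in these 3 windows.
chr1:193813919-193814218, intergenic, 12625 bp from the start of Rd3: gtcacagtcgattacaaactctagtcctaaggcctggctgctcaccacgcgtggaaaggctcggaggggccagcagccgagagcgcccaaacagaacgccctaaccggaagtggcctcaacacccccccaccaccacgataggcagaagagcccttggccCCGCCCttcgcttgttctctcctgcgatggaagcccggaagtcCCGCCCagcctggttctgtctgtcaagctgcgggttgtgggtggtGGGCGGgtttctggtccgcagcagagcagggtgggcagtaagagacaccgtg
chr4:107743877-107744176, in an intron, 38900 bp from the start of Podn: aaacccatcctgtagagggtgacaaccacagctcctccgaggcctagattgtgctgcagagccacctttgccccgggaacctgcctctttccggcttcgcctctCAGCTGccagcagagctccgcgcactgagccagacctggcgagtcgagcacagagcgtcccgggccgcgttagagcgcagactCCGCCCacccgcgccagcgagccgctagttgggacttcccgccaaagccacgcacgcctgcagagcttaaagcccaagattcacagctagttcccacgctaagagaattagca
chr9:57679139-57679438, in an intron, 5005 bp from the start of Arid3b: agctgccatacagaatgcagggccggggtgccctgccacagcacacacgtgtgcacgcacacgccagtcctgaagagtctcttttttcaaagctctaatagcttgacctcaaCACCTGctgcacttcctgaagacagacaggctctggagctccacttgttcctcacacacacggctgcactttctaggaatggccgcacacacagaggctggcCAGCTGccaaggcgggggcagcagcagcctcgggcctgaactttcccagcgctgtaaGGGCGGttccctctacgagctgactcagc

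At the site near Rd3 the NIPBL fold was 12.9 and 8.26 in the controls and 17.0 and 11.8 in the block cells. The site was chosen by its block fold. Medians of all single-copy members with a peak were 3.12 and 3.06 in the controls and 4.57 and 3.52 in the block cells, and folds of different lists were not tested against each other. RAD21 covered 290 bp there in control replicate 2, 298 bp in block replicate 2 and 174 bp in Ig2b deleted replicate 1, and 0 bp in the other 7 libraries. At Arid3b, which encodes a DNA-binding protein of the ARID family, RAD21 had a peak in 9 of 10 libraries and was missing only from control replicate 1. The site near Podn was also covered in 9 of 10, again without control replicate 1. Both sites had a peak in control replicate 2, so their lack of a peak in control replicate 1 was largely fixed by the rule. The site of 300 bp whose nearest coding gene is Engase had a RAD21 peak only in block replicate 1.

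The base composition of the members stood apart from the sequence around them. Windows of 300 bp at their centres had a mean GC content of 56.9%, against 43.4% in windows 5 kb away and 41.8% in all windows of the genome. They held 12.3 CpG dinucleotides on average, against 3.18 in the flanks. Windows with at least 50% GC and an observed to expected CpG ratio of at least 0.6 were 30.5% of members, 74.6% of NIPBL promoter sites without RAD21 and 0.464% of distal RAD21 sites without NIPBL. In the whole genome it was 0.836%. Distal NIPBL sites with RAD21 also stood apart from their flanks, so this was not particular to the members. Those sites had 55.2% GC against 46.6% in their flanks, 9.07 CpG against 3.67, and 15.2% of such windows.

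Motif letters followed a similar split. CAGCTG, an E-box bound by E proteins, was in 39.1% of single-copy members, 15.9% of their flanks and 10.6% of genome windows. CCCNNGGG, the core letters of the EBF1 site, was in 23.6%, 8.70% and 4.71%. GGGCGG, the box of SP family factors, was in 28.8%, 6.72% and 2.86%. In distal NIPBL sites with RAD21 the same motifs, in that order, were in 30.9%, 18.0% and 20.9% of windows. Their flanks had 15.3%, 8.65% and 4.78%. The longer CTCF letters AGGGGGCGC were in 0.783% of single-copy members, 0.176% of their flanks and 0.0585% of genome windows, and in 3.85% of distal NIPBL sites with RAD21 and 2.36% of distal RAD21 sites without NIPBL. The shorter AGGGGGC was in 9.69% of single-copy members, 4.93% of their flanks and 12.3% of distal RAD21 sites without NIPBL. Repeated members of 1 family share most of their letters, so their matches are not independent. GATA letters (AGATAA) were in 5.67% of single-copy members and 13.1% of their flanks. Letters of other factors went both ways in the same 2 sets. CAGGTG was in 37.5% and 23.9%, ETS1-type letters in 5.7% and 2.5%, and PU.1-type letters in 3.6% and 2.0%. IKZF letters were in 10.05% and 9.60%, and RUNX letters in 6.9% and 7.7%. FOXO letters were in 3.11% and 3.92%, OCT letters in 0.89% and 1.84%, and IRF letters in 5.54% and 8.54%. These shares are descriptions with both strands searched. Mean GC content also differed, at 58.9% in single-copy members and 47.6% in their flanks, and its part in the motif shares was not tested.

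**Figure D5:**
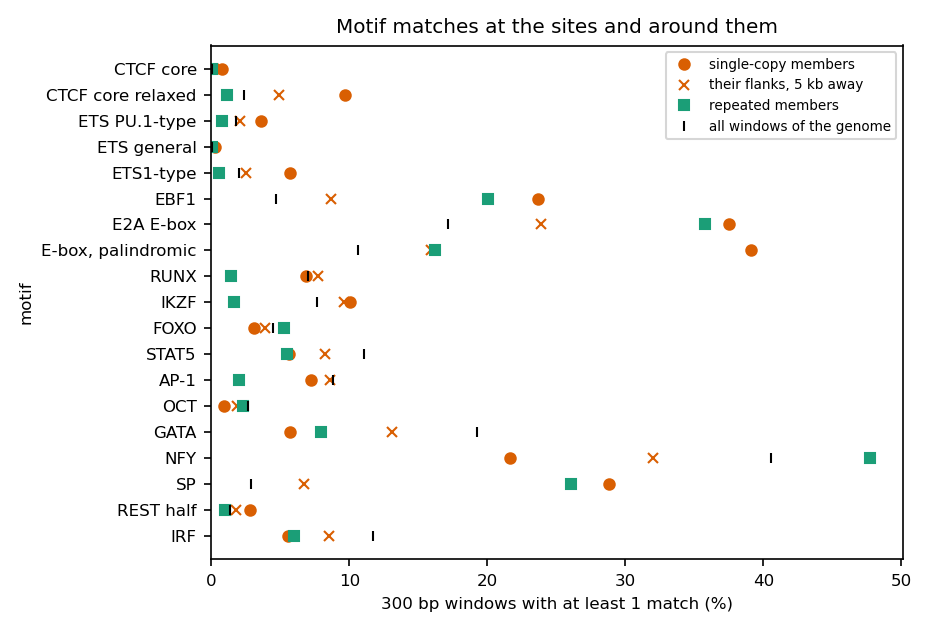
Percentage of 300 bp windows with at least 1 match (horizontal axis) for 19 motifs (vertical axis) in single-copy members, their flanks 5 kb away, repeated members and all windows of the genome. The palindromic E-box, EBF1 and SP letters are more frequent in single-copy members than in their flanks, and the GATA, NFY and STAT5 letters less frequent.

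Members were then counted within 100 kb of the starts of genes in 7 lists, beside 59.6% of all protein-coding genes with any member and 32% with a single-copy member. Of 28 early B lineage genes, 20 had a member and 17 (60.7%) a single-copy member. Irf8, a transcription factor of B and myeloid cells, had 7, all single-copy. Cd79b, a chain of the B cell receptor, had 6 members, 2 of them single-copy. Il7r, the IL-7 receptor, had 5 with 2 single-copy, and Bach2 had 4 with 3 single-copy. Of 19 genes of v-Abl withdrawal and STAT5 signalling, 18 (94.7%) had a single-copy member. Ccnd3 (cyclin D3), Socs1 and Socs3 (feedback inhibitors of cytokine signalling) had 7 members each, and Btg2, an antiproliferative gene, had 4. At Ccnd3 and Socs1, 6 single-copy members each had a NIPBL peak in all 4 NIPBL libraries.

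The other lists gave lower or higher shares. A single-copy member was near 77.8% of the myeloid and 70% of the housekeeping genes, both above the early B lineage list, and near 50% of the erythroid and 45.5% of the T cell genes. Any member was near 90% of the housekeeping and 87.5% of the erythroid genes, against 71.4% of the early B lineage genes. Of 15 genes for cohesin, its loader and CTCF, 8 had a member and 5 (33.3%) a single-copy one. Pds5b had 2, and Ctcf, Mau2 and Rad21 had 1 each, with those of Pds5b and Rad21 repeated. Of 11 T cell genes 6 had a member and 5 a single-copy member, and Bcl11b, Cd4, Lck and Zap70 had 3 each. Those of Lck and Zap70 were all single-copy, against 1 at Bcl11b and none at Cd4. Of 9 myeloid genes 7 had a single-copy member, with 6 members each near Elane and Fcgr3 and 2 each near Lyz2 and S100a8. All of these were single-copy except at Fcgr3, which had 2 single-copy members. Of 8 erythroid genes 7 had a member and 4 a single-copy one, with 6 near Epor, 4 near Tal1 and 3 near Alas2. Single-copy members were 3 each at Epor and Tal1 and none at Alas2. Of 10 housekeeping genes 9 had a member and 7 a single-copy one, with 8 near Rplp0 and 4 each near Actb and Gapdh. Those at Rplp0 and Gapdh were all single-copy, and 1 at Actb was. The median of members per gene was 2 in 5 of the lists and 1 over all protein-coding genes. Gene density around a start was not matched, so its part in these counts was not tested.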

How the data were processed

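NIPBL and RAD21 ChIP-seq was analysed from 14 peak lists, 1 per library; 4 input samples were not used here. The submitters' processing notes name Bowtie2 2.2.8 and SAMtools 1.8 on the mm9 build, and MACS2 for peaks; MACS2's version and options are not given in the sources used here. Each list is a broadPeak table without a header. The fold of a peak is a ratio over background made by the authors, used only to describe and rank peaks within a list. The −log10 p and −log10 q columns and the score column were deposited by the authors, and only q was used, as an alternative threshold. Per the peak names in the deposited lists, the Ig2b lists were called without a control library and with duplicates removed, and the others with a control. Read depth was unknown, so no interval that needs it is given.

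Peaks overlapping by at least 1 bp were merged, with mm9 (NCBIM37) and GENCODE vM1 as reference. Groups and replicate numbers came from the sample labels. Covered bp were compared with limma 3.58.1 in R 4.3.3 (log2 of bp + 100, mean of at least 100 bp, Benjamini-Hochberg over all regions tested), which was tested on simulated data. Shares of sites were compared by exact permutation over libraries. Python 3.11.15, numpy 2.4.6 and pandas 2.3.3 served for all else. Named sites followed fixed rules: the 10 members highest by block fold, the 10 genes with most members, up to 4 genes per list, all Igh members, the 3 widest, those at the 5 kb limit, and up to 5 called per direction. The members, gene lists and tests were chosen with earlier results of these data known, and the split into single-copy and repeated sites was added after seeing the data. Whether replicate numbers pair libraries was checked by the correlation of same-numbered deviations (0.0711 for NIPBL, 0.709 for RAD21 block and control, 0.0133 to 0.121 for Ig2b); the labels name no shared batch, so the numbers were not treated as pairs.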

Additional observations from a re-analysis of the deposited data

How the results depend on the processing

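Depth is unknown, and the inputs were not used, so signal at repeats could not be set against background. With −log10 q of at least 3, the member number was 1569, the share with NIPBL in both block libraries 62.5%, the called member regions 295 of 4159 (NIPBL block, 6.04% of all regions) and 20 of 202 (Ig2b, 2.94% of all), and the RAD21 difference from promoter sites −0.746 points. Leaving out 1 library gave 13850 to 64193 members (62045 without NIPBL control replicate 2 and 64193 without replicate 1), and NIPBL in the block libraries at 17.0% to 74.6%, the highest being the share in block replicate 2 alone; Ig2b calls ranged from 0 to 32 for member regions and from 0 to 641 for all, and the promoter difference from −19.7 to −13.5 points (with exact p-values at the smallest that 5 libraries allow).

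Ig2b calls were 0 with 500 bp added, without the filter, with quantile normalization and with the replicate block. Same-numbered pairs gave the Ig2b share difference an exact p of 0.25 under the replicate block, the smallest that 3 pairs allow, and no call in the dCas9 comparisons changed under it; for RAD21 in these cells, 62 member regions (3.59%) had an unadjusted p under 0.05 with the block, against 2.64% of all. The promoter difference was −1.80 points at 50% overlap and −2.69 among sites with no RAD21 peak in either control. It was −0.857 among single-copy sites and 5.77 (reversed) in 300 bp windows of those. The cause was not tested. NIPBL in both block libraries was 54.1% for members with no RAD21 peak in either control and 60.6% for single-copy members. The repeated share was 69.3% and 78.9% with limits of 10% and 90% of words, 86.7% without RAD21 in either control, 57.3% among members found again at −log10 q of at least 3, and 75.6% among those with NIPBL in both block libraries. Where 1 library was left in a group, limma assumed that it varied like the rest.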
